A study of Homo sapiens with 9 samples.

Results

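RNA of 10 genes of the epidermal growth factor (EGF) receptor system was read in MCF10A cells and in lines transformed from them under BMP2 and IL6. The genes were taken by symbol from a table of 60199 symbols, because growth of MCF10A depends on EGF. They comprise 2 receptors (EGFR and ERBB3), 7 ligands (TGFA, AREG, EREG, HBEGF, BTC, EGF and NRG1) and ERRFI1, an intracellular inhibitor of EGFR. MCF10A is a non-malignant human mammary epithelial line, and 3 libraries each of MCF10A-CT (CT, no added cytokine, not transformed), MC26 and M1B26 were sequenced. MC26 came from unsorted MCF10A cells and M1B26 from soft-agar clones of MCF10A cells sorted for the receptor BMPR1B. Both were kept with BMP2 and IL6, for which the labels give 5 and 10 ng per microliter while the methods of the study give other concentrations, so the dose is uncertain. The methods give for MCF10A a medium with EGF, insulin, hydrocortisone, cholera toxin and horse serum. They do not state separately the medium of MC26 and M1B26. Transformation cannot be told apart here from the presence of BMP2 and IL6, or in M1B26 from the sorting and cloning. The sources used here do not state if each M1B26 culture was a clone of its own.

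EGFR and its relatives ERBB2, ERBB3 and ERBB4 are receptor tyrosine kinases that act as pairs. Ligands such as TGFA and AREG are made as membrane proteins, released by proteases and bound by EGFR on the same or nearby cells, whereas neuregulins such as NRG1 bind ERBB3 and ERBB4. ERBB3 has little kinase activity of its own and signals through its partner, and ERRFI1 is induced by the pathway and blocks the kinase of EGFR. In mammary epithelium AREG is known as a mediator of duct growth.

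The libraries held 21425118 to 80076597 counts, and 15717 genes passed the filter on low counts, all 10 genes of this system among them. Values are CPM, counts scaled to a common library size with TMM factors, and in the shallowest library, CT replicate 2, 3 counts stand for 0.131 CPM. Basal markers (KRT5, KRT14, KRT17, TP63 and CDH3) summed to 5952 to 8865 CPM across the libraries. Another 4 epithelial markers (EPCAM, CDH1, KRT8 and KRT18) summed to 681 to 1111 CPM, so the markers of an epithelial line were present. KRT5 made up most of the basal sum and was lower in M1B26 than in CT (log2 fold change -0.42, edgeR adjusted p 0.00435). KRT14 averaged 54.1 CPM in CT against 1097 (MC26) and 548 (M1B26), and TP63 was 2.44-fold and 2.47-fold higher than in CT. CDH3 was higher in MC26 (0.41, edgeR adjusted p 0.00219) but did not pass the test in M1B26, and KRT17 passed in neither line. The sum of EPCAM, CDH1, KRT8 and KRT18 was 681 to 715 CPM in MC26, under the 969 to 1111 CPM of CT. All 4 of these markers were lower in MC26, with EPCAM at 14.8 CPM on average against 70.4 in CT. In M1B26, CDH1 and KRT8 were lower than in CT (log2 fold change -0.79 and -0.27), while EPCAM and KRT18 did not pass the test. Of 6 leukocyte markers, 2 (CD68 and CD14) were tested, and the sum of the list ran from 14.8 to 19.9 CPM in CT, 34.4 to 36.8 in MC26 and 56.8 to 78.9 in M1B26. CD3E was at 0 in every library and PTPRC had at most 2 counts. The sum of 4 hormone-responsive luminal markers was 19.6 to 24.5 CPM in CT, against 16.6 to 19.5 for MC26 and 13.5 to 14.8 for M1B26. Its 3 tested members did not move together. GATA3 was lower than in CT in both lines (log2 fold change -0.45 in MC26 and -1.18 in M1B26). ESR1, at a mean of just 0.0964 CPM in CT, was higher in both (1.07 and 2.05, edgeR adjusted p 0.044 and 5.19e-04). FOXA1 passed the test in neither. Endothelial markers, of which PECAM1 alone was tested, summed to 4.85 to 5.32 CPM in CT, 0.0995 to 0.541 in MC26 and 0.497 to 1.74 in M1B26, and PECAM1 was lower in both lines. Of 7 fibroblast markers 4 were tested, and the list summed to 37.4 to 37.8 CPM in CT, 17.1 to 56.8 in MC26 and 28.5 to 39.9 in M1B26. None of these 4 passed the test in MC26 against CT. In M1B26, LUM (0.108 CPM on average in CT, 5.11 in M1B26) and COL1A1 (7.73 and 15.4 CPM) rose. The other tested members, DCN and PDGFRB, went the other way but did not pass (log2 fold change -1.05 and -0.62, edgeR adjusted p 0.129 and 0.147). For both, all M1B26 libraries lay below all CT libraries. The part of these markers in the results was not tested. Bulk RNA cannot tell a change in the number of cells of a kind from a change in RNA per cell.

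In MC26 against CT, 7 of the 10 genes changed, 4 higher and 3 lower, by an edgeR quasi-likelihood test adjusted over all genes. The background in this comparison was 38.7% of all tested genes (18.8% higher, 19.9% lower). In M1B26 against CT 8 changed, 5 higher and 3 lower, against a background of 48.9% (25.2% higher, 23.7% lower). Between M1B26 and MC26 5 changed, 4 higher and 1 lower in M1B26, against 39.5% (21.2% higher, 18.4% lower). The libraries of the lines did not overlap for 8, 8 and 5 of the 10 genes in that order, where all tested genes gave 50.3%, 59% and 53.5%. The median log2 fold change of the 10 genes was 0.35, 0.44 and 0.43 in that order, where that of all tested genes lay at 0.00 in each. TGFA, EREG, HBEGF and NRG1 rose in both transformed lines against CT, while ERBB3 and ERRFI1 fell in both. AREG rose and EGFR fell in M1B26, and BTC fell in MC26. Both comparisons with CT used the same 3 CT libraries. The 10 genes were chosen with earlier results of these data known, so their shares beside the background are descriptions only.

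**Figure D1:**
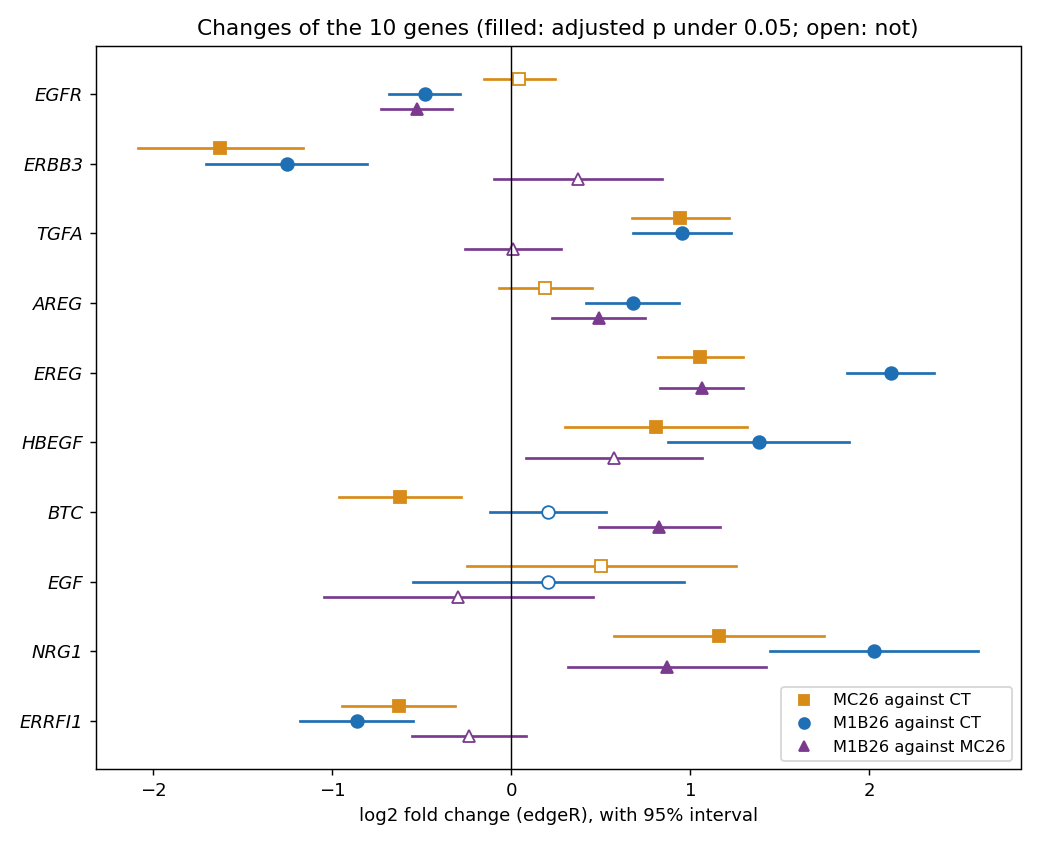
Log2 fold changes of the 10 genes in the 3 comparisons (x axis, edgeR, with 95% intervals); filled symbols passed an adjusted p under 0.05 and open ones did not. EREG in M1B26 against CT lies farthest to the right at 2.12 and ERBB3 in MC26 against CT farthest to the left at -1.63.

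EGFR, the receptor for EGF, lies on chromosome 7 (GRCh38, 55019017 to 55211628, plus strand). It had 405, 429 and 422 CPM in CT replicates 1 to 3, 459, 431 and 405 in MC26, and 332, 258 and 309 in M1B26. All M1B26 libraries lay below every other library, while CT and MC26 overlapped. Mean CPM (± SD, n = 3) was 419 ± 12.3 for CT, 432 ± 26.7 for MC26 and 299 ± 37.6 for M1B26. Its log2 fold change from CT to M1B26 was -0.48 (SE 0.09, edgeR adjusted p 0.00120), and from MC26 to M1B26 it was -0.53 (SE 0.09, edgeR adjusted p 0.00109). In MC26 against CT it was 0.04 (95% interval -0.15 to 0.24, edgeR adjusted p 0.727). The antisense gene EGFR-AS1 had 0 to 2 counts per library, so reads assigned to it were few beside those of EGFR.

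ERBB3, the receptor for neuregulins (chromosome 12, 56076799 to 56103505, plus strand), was much lower in both transformed lines. Its levels were 13.7, 11.9 and 13.2 CPM in CT, 3.26, 3.97 and 5.36 in MC26, and 5.07, 4.07 and 7.09 in M1B26. No transformed library reached the lowest CT library, and the transformed lines overlapped each other. On the log2 scale the change was -1.63 in MC26 (SE 0.21, edgeR adjusted p 1.64e-04) and -1.25 in M1B26 (SE 0.20, edgeR adjusted p 4.97e-04), which is 3.09-fold and 2.39-fold lower. Between M1B26 and MC26 it was 0.37 (95% interval -0.10 to 0.84, edgeR adjusted p 0.190), and 0.59 without MC26 replicate 3, which passed the threshold (edgeR adjusted p 0.0467). It was 0.22 without MC26 replicate 1 (edgeR adjusted p 0.471) and 0.12 without M1B26 replicate 3 (edgeR adjusted p 0.662).

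The remaining receptors were read beside them. ERBB2, the preferred partner of ERBB3, had 66.7 to 80.9 CPM in CT, 46.03 to 52.2 in MC26 and 96.5 to 101.7 in M1B26, with no overlap between any pair of lines. It changed by -0.64 in MC26 against CT (SE 0.08, edgeR adjusted p 1.67e-04) and by 0.41 in M1B26 against CT (SE 0.08, edgeR adjusted p 0.00182). ERBB2 lies on chromosome 17, whose 843 tested genes had a median log2 fold change of 0.48 in M1B26 against CT and 0.00 in MC26 against CT, and the part of that shift in the rise of ERBB2 was not tested. ERBB2 also overlaps MIEN1 and PGAP3 on the other strand, and the use of strand in counting is not given in the sources used here. ERBB4 had 0 counts in CT, 1 in MC26 and 2 in M1B26, at or under the floor of 3 counts in every library. No shift of that kind was seen on the chromosomes of the 10 genes, whose medians stayed between -0.04 and 0.02 in all 3 comparisons.

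ERRFI1, also called MIG6, is transcribed after receptor activation and inhibits EGFR (chromosome 1, 8004404 to 8026309, minus strand). It stood at 86.1, 84.5 and 75.6 CPM in CT, 42.3, 53.5 and 63.3 in MC26, and 37.8, 45.2 and 52.04 in M1B26. Every transformed library was below every CT library. The log2 fold change was -0.63 in MC26 (SE 0.14, edgeR adjusted p 0.00560) and -0.87 in M1B26 (SE 0.14, edgeR adjusted p 5.80e-04). M1B26 and MC26 overlapped, with a difference of -0.24 (95% interval -0.55 to 0.08, edgeR adjusted p 0.214) that passed the threshold without MC26 replicate 1 (-0.37, edgeR adjusted p 0.0463). It was -0.09 without MC26 replicate 3 (edgeR adjusted p 0.638) and -0.12 without M1B26 replicate 1 (edgeR adjusted p 0.551).

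**Figure D2:**
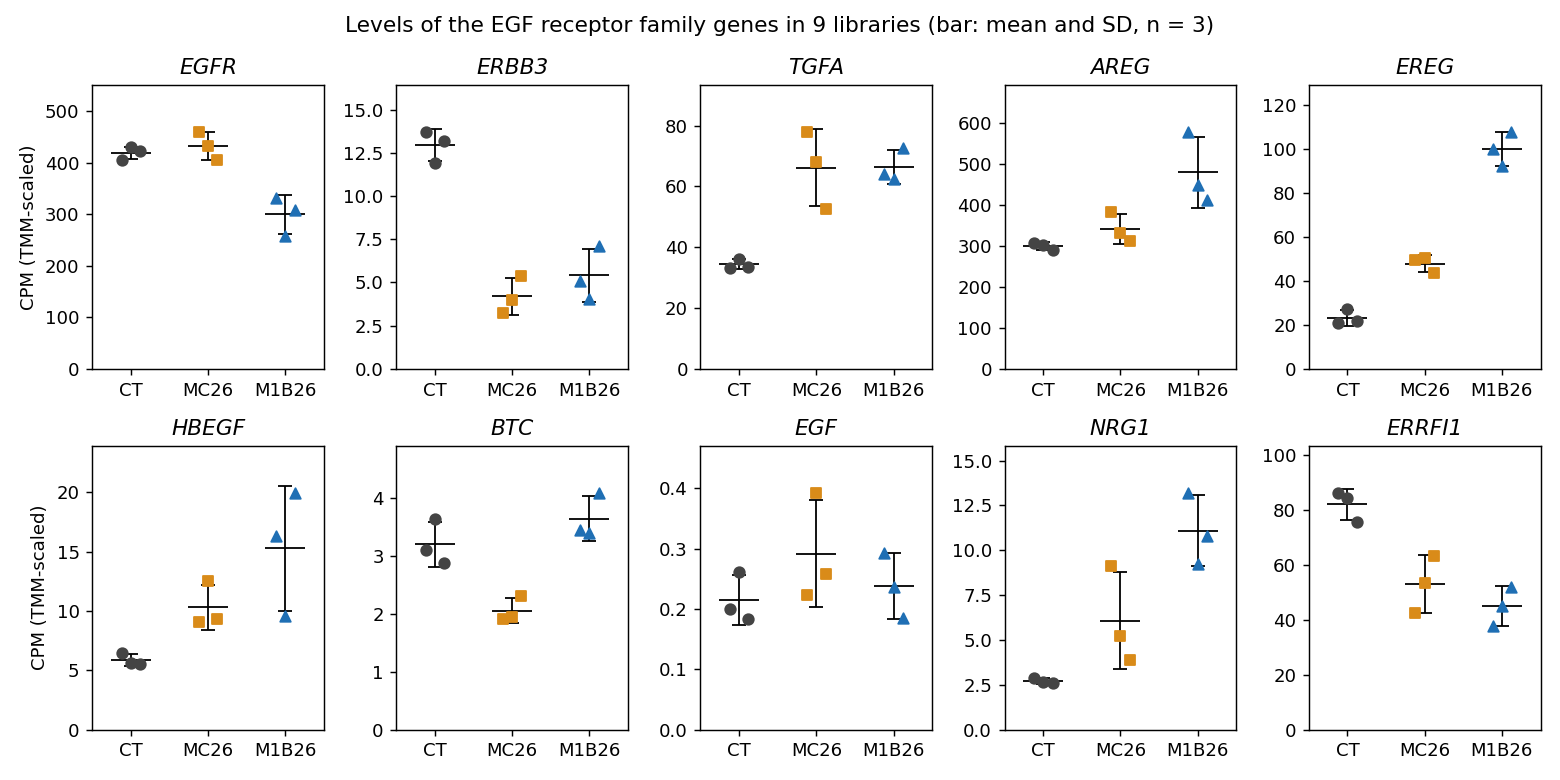
CPM of the 10 genes (y axes, from 0) in the 3 libraries of each line (points), with the mean and SD as bars (n = 3). EREG and NRG1 step up from CT to MC26 to M1B26, ERBB3 and ERRFI1 lie lower in both transformed lines, and EGF stays at or below 0.392 CPM.

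EREG (epiregulin, chromosome 4, 74365145 to 74388749, plus strand), an EGFR ligand, rose in both lines, and in M1B26 against CT it had the highest log2 fold change of the 10 genes. It had 20.7, 27.4 and 21.6 CPM in CT, 49.7, 50.4 and 43.6 in MC26, and 100.005, 92.3 and 107 in M1B26. The lines did not overlap, and the highest CT library lay well under the lowest MC26 library. Its log2 change came to 1.06 in MC26 against CT (SE 0.11, edgeR adjusted p 3.39e-05) and 2.12 in M1B26 against CT (SE 0.11, edgeR adjusted p 2.49e-07), the latter 4.34-fold. M1B26 exceeded MC26 by 1.06 (SE 0.11, edgeR adjusted p 3.89e-05).

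AREG (amphiregulin, chromosome 4, 74445136 to 74455005, plus strand), an EGFR ligand, had the highest level per length of the 10 genes (given with the order of levels). It had 307, 302 and 289.6 CPM in CT, 382, 332 and 311 in MC26, and 577, 448 and 412 in M1B26. All M1B26 libraries lay above all others, and M1B26 replicate 1 was the highest. The log2 fold change from CT to M1B26 was 0.68 (SE 0.12, edgeR adjusted p 7.65e-04), and from MC26 to M1B26 it was 0.49 (SE 0.12, edgeR adjusted p 0.00755). In MC26 against CT it was 0.19 (95% interval -0.07 to 0.45, edgeR adjusted p 0.225), although all MC26 libraries were above all CT libraries.

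EREG, AREG and BTC are neighbours on chromosome 4, together with EPGN (epigen), another EGFR ligand, within 486.1 kb (74308470 to 74794523). EPGN, EREG and AREG lie on the plus strand and BTC on the minus strand. Promoters were looked at because these adjacent ligand genes moved in part together. RefSeq promoter windows of 300 bases (250 before to 50 after the start, GRCh38.p14) were found for EGFR, TGFA, AREG, EREG, HBEGF, BTC, EGF and ERRFI1, that is for 8 of the 10 genes, and for EPGN. The 140 bases before the start are shown for the cluster, each 5′ to 3′ on the strand of the gene: EPGN at chr4:74308330-74308469 (plus), EREG at chr4:74365005-74365144 (plus), AREG at chr4:74444996-74445135 (plus) and BTC at chr4:74794524-74794663 (minus). Capitals mark TATAAA, the letters of a TATA box, and TGACG or TGACGTCA, the short and the full letters of a cAMP response element.
EPGN: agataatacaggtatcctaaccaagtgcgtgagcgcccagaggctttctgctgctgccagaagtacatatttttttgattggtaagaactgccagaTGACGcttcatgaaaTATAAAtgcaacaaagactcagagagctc
EREG: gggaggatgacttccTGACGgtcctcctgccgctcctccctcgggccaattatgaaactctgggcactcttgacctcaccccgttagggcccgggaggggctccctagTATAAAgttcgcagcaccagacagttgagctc
AREG: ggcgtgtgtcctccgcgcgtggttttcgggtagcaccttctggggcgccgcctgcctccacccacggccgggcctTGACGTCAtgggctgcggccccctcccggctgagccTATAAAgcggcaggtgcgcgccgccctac
BTC: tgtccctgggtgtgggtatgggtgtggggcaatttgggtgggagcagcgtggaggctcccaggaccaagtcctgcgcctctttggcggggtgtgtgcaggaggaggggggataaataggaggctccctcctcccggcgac

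TATAAA began 29 bases before the start in EPGN, 32 in EREG and 29 in AREG. Over all 35116 promoter windows, 2.3% held TATAAA on the strand of the gene between 40 and 20 bases before the start. Among the 10 genes it was found there in EREG, AREG and a second, downstream window of EGFR. TGACG on either strand was found in EPGN (44 bases before the start), EREG (125) and AREG (65), and in 24.6% of all windows, and also in 1 of the 2 windows of TGFA. The full TGACGTCA, which contains TGACG, was found in AREG alone of the 10 genes (1.85% of all windows). TGANTCA, the letters bound by AP-1, was found in EGF and the downstream window of EGFR (7.71% of all windows). GGCGCC, letters known from BMP-responsive elements, was found in TGFA, AREG and HBEGF (19.2%), and TTCNNNGAA, the letters of a STAT site, in none of the 8 genes with a window (7.66%). The last 4 of these motifs are palindromes and read alike on both strands. A match describes these letters only.

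EPGN was lower in CT (85.2 to 99.02 CPM) than in MC26 (134 to 184) and M1B26 (154 to 162), with log2 fold changes of 0.77 (SE 0.11) in both lines (edgeR adjusted p 2.46e-04 and 1.61e-04). BTC (betacellulin, 74744759 to 74794523), an EGFR ligand, took another course. It had 3.10, 3.63 and 2.87 CPM in CT, 1.91, 1.94 and 2.31 in MC26, and 3.45, 3.38 and 4.08 in M1B26, so that MC26 lay below both other lines. By edgeR the log2 fold change was -0.62 in MC26 against CT (SE 0.15, edgeR adjusted p 0.00875) and 0.83 in M1B26 against MC26 (SE 0.15, edgeR adjusted p 0.00177). In M1B26 against CT it was 0.20 (95% interval -0.12 to 0.53, edgeR adjusted p 0.276). Of the other protein-coding genes within 500 kb of the cluster, a window chosen after the values were known, 6 were tested. In MC26 5 of them were higher than in CT and none lower, and in M1B26 4 were higher and none lower, where 18.8% and 25.2% of all tested genes were higher. They included the chemokine genes CXCL1, CXCL2 and CXCL3, closely related copies for which reads shared between them were not checked, and MTHFD2L, at 0.33 in MC26 and 0.46 in M1B26 (edgeR adjusted p 0.00917 and 0.00104). Over chromosome 4 the median of 528 tested genes was 0.01 in MC26 and -0.03 in M1B26.

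**Figure D3:**
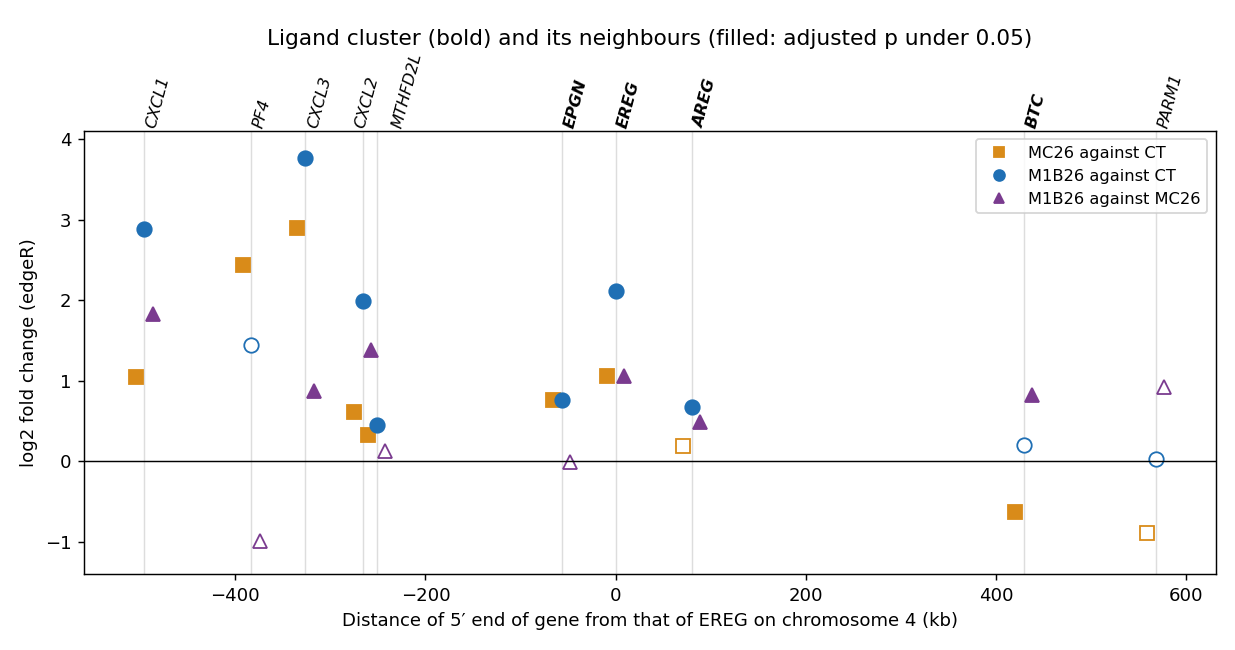
Log2 fold changes (y axis, edgeR) of the tested genes around the ligand cluster, by the distance of their 5′ ends from that of EREG in kb (x axis; grey lines mark the position and the symbols are shifted sideways from it to stay visible). Filled symbols passed an adjusted p under 0.05; EREG reaches 2.12 in M1B26 against CT, EPGN is at 0.77 in both lines and BTC at -0.62 in MC26.

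TGFA (transforming growth factor alpha, chromosome 2, 70447284 to 70554193, minus strand) rose alike in both lines. It had 33.3, 36.3 and 33.6 CPM in CT, 77.8, 67.9 and 52.6 in MC26, and 64.1, 62.5 and 72.8 in M1B26. Each transformed library was above each CT library, and MC26 spanned the whole range of M1B26. The log2 fold change was 0.94 in MC26 (SE 0.12, edgeR adjusted p 1.83e-04) and 0.95 in M1B26 (SE 0.12, edgeR adjusted p 1.09e-04). M1B26 and MC26 differed by 0.01, with a 95% interval of -0.26 to 0.27 (edgeR adjusted p 0.964).

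HBEGF (heparin-binding EGF-like growth factor, chromosome 5, 140332843 to 140346603, minus strand) had 6.44, 5.59 and 5.54 CPM in CT, 9.10, 12.5 and 9.29 in MC26, and 16.3, 9.59 and 19.9 in M1B26. All transformed libraries exceeded CT, and M1B26 replicate 2 lay within the range of MC26. On the log2 scale it changed by 1.38 in M1B26 against CT (SE 0.23, edgeR adjusted p 5.79e-04) and 0.81 in MC26 against CT (SE 0.23, edgeR adjusted p 0.0178). The rise in MC26 was at 0.65 without MC26 replicate 2 (edgeR adjusted p 0.0725) and at 0.77 without CT replicate 3 (edgeR adjusted p 0.0526). Between M1B26 and MC26 the difference of 0.57 (95% interval 0.08 to 1.06, edgeR adjusted p 0.0618) was not past the threshold. It passed without M1B26 replicate 2 (0.82, edgeR adjusted p 0.00437), with DESeq2 (0.56, adjusted p 0.0368) and without the filter on low counts (0.58, edgeR adjusted p 8.15e-04). Without M1B26 replicate 3 it was 0.33 (edgeR adjusted p 0.256).

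EGF (chromosome 4, 109912883 to 110013766, plus strand) was near the filter on low counts, with 6 to 15 counts and 0.183 to 0.392 CPM per library. The lines overlapped, and the log2 fold change was 0.50 in MC26 (95% interval -0.25 to 1.26, edgeR adjusted p 0.270) and 0.21 in M1B26 (95% interval -0.55 to 0.97, edgeR adjusted p 0.646). A change within these wide intervals was not detectable at this depth.

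NRG1 (neuregulin 1, chromosome 8, 31639222 to 32855666, plus strand), the ligand of ERBB3 in this set, rose in both lines. It had 2.89, 2.66 and 2.59 CPM in CT, 9.10, 5.20 and 3.91 in MC26, and 13.2, 9.25 and 10.8 in M1B26. No line overlapped another, though MC26 replicate 1 came close to the lowest M1B26 library. The log2 fold change was 1.16 in MC26 against CT (SE 0.27, edgeR adjusted p 0.00593) and 2.03 in M1B26 against CT (SE 0.26, edgeR adjusted p 1.14e-04). Without MC26 replicate 1 the rise in MC26 was 0.75 (edgeR adjusted p 0.0118). M1B26 exceeded MC26 by 0.87 (SE 0.25, edgeR adjusted p 0.0180), which was not past the threshold without MC26 replicate 2 (0.77, edgeR adjusted p 0.0732) or without M1B26 replicate 1 (0.73, edgeR adjusted p 0.0706). Of the other neuregulins, NRG2 fell from 2.05 to 2.89 CPM in CT to 0.348 to 0.729 in MC26 (log2 fold change -2.37, SE 0.26, edgeR adjusted p 5.54e-05). In M1B26 NRG2 was at -0.54 against CT (edgeR adjusted p 0.0687). NRG4 was past the threshold in no comparison and NRG3 had at most 1 count per library.

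The libraries of MC26 were not equally far from CT. For 6 of the 7 genes that changed in MC26, replicate 3 was the library nearest the mean of CT, HBEGF being the exception. In M1B26 replicate 2 was nearest for 4 of 8 genes, replicate 3 for 3 and replicate 1 for 1.

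Levels of different genes were compared per length, as CPM per kb of the Ensembl canonical transcript, which for genes with many isoforms such as NRG1 is only an approximate length. In CT the order was AREG (243 CPM per kb), EGFR (42.3), ERRFI1 (26.5), TGFA (8.36), EREG (5.03), HBEGF (2.48), ERBB3 (2.30), BTC (1.21), NRG1 (0.226) and EGF (0.0337). Only HBEGF and ERBB3 overlapped among these neighbours. AREG lay above 98.2% of tested genes in CT, EGFR above 87.8% and ERBB3 above 29.6%. In MC26 ERRFI1 (17.1) overlapped TGFA (16.1), and BTC (0.773), ERBB3 (0.748) and NRG1 (0.507) followed each other with overlapping ranges of neighbours. In M1B26 EREG (21.7) had moved above TGFA (16.1) and ERRFI1 (14.5), the last 2 with overlapping ranges. ERBB3 (0.964) and NRG1 (0.925) overlapped there, while in CT their ranges were far apart.

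The ligands known to bind EGFR (TGFA, AREG, EREG, HBEGF, BTC, EGF and EPGN) summed to 300.3, 300.3 and 283 CPM per kb in CT, 413, 361 and 329 in MC26, and 572, 461 and 445 in M1B26. The lines did not overlap, and AREG made up 74.5% to 83.0% of the sum in every library. EREG made up 1.49% to 1.98% in CT, 2.61% to 3.02% in MC26 and 3.79% to 5.23% in M1B26. These sums are descriptions and were not tested.

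**Figure D4:**
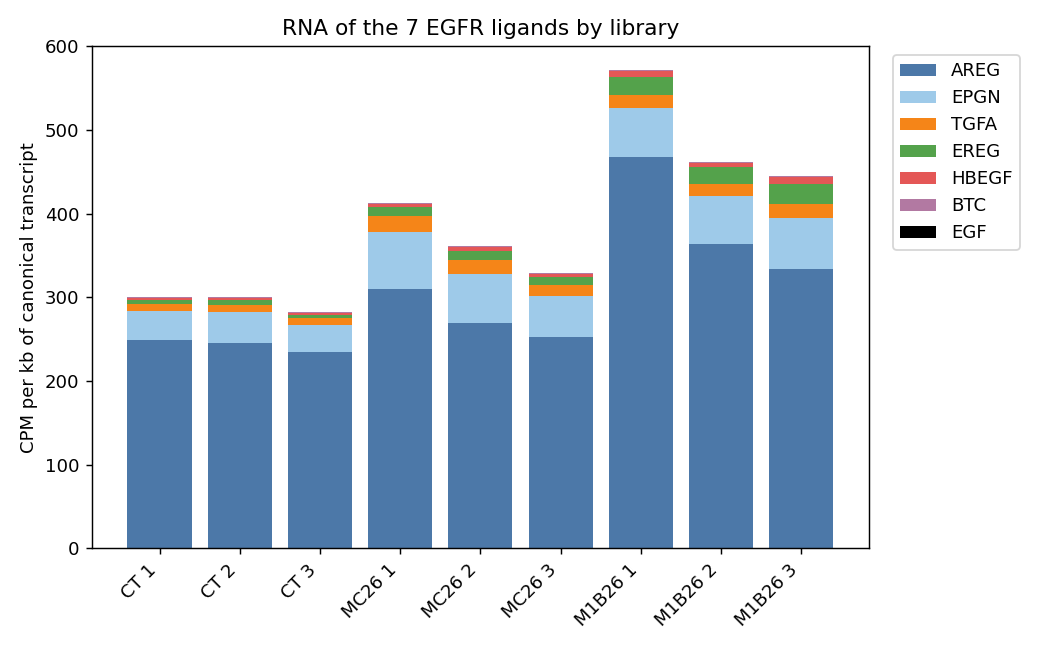
Summed CPM per kb of canonical transcript (y axis, from 0) of the 7 EGFR ligands in each of the 9 libraries, stacked by gene. CT bars reach 283 to 300.3 and M1B26 bars 445 to 572, and AREG is the main part of every bar.

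Genes with the most similar course were searched among 12866 other genes whose mean CPM was 1 or more, by the root mean square difference of log2 CPM centred over the 9 libraries. EGFR was followed most closely by SPEN (0.04) and TRIO (0.05), ERRFI1 by SDCBP (0.06) and PANK1 (0.10), and AREG by GOSR2 (0.07) and PVT1 (0.09). For BTC the nearest were PTPRB (0.06) and E2F5 (0.08), and for TGFA MARK1 (0.09) and MSANTD3 (0.09). ERBB3 had TNS3 (0.16) and PPM1L (0.17), EREG had RBM11 (0.17) and TMEM156 (0.18), HBEGF had IRAK2 (0.20) and TANC2 (0.24), and NRG1 had S100A2 (0.24) and NLRP1 (0.26). EGF was left out of these comparisons for its low mean. Among the other 9 genes the closest pair was EREG and NRG1 (0.31) and the most distant ERBB3 and NRG1 (1.51).

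Other genes of the pathway were read by their roles. Ligand shedding genes, which include the proteases and rhomboid proteins that release ligands, changed in 3 of 9 cases in MC26 (1 higher, 2 lower) and in 6 of 9 in M1B26 (3 higher, 3 lower), where 38.7% and 48.9% of all tested genes changed. ADAM12, a protease that can release HBEGF, fell from 63.2 ± 3.50 CPM in CT (SD, n = 3) by 1.15 on the log2 scale in MC26 (edgeR adjusted p 2.02e-04) and by 2.75 in M1B26 (edgeR adjusted p 6.06e-07). RHBDF2 (iRhom2), a gene of chromosome 17 (whose tested genes had a median of 0.48 in M1B26 against CT), which guides the protease ADAM17 to the cell surface, rose by 1.01 in M1B26 (SE 0.13, edgeR adjusted p 1.25e-04) and was at 0.03 in MC26 (edgeR adjusted p 0.877). The rhomboid protease RHBDL2 rose by 1.52 in M1B26 (SE 0.22, edgeR adjusted p 2.35e-04), from a low level of 0.724 ± 0.117 CPM in CT (SD, n = 3).

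Genes of receptor down-regulation changed in 7 of 15 cases in MC26 (3 higher, 4 lower) and in 8 of 15 in M1B26 (3 higher, 5 lower), with medians of 0.03 and -0.09. These shares of 46.7% and 53.3% lay near the 38.7% and 48.9% of all tested genes. LRIG1, a membrane protein that promotes loss of ERBB receptors, had 22.6 to 24.3 CPM in CT, 3.45 to 5.98 in MC26 and 4.40 to 8.38 in M1B26. Its log2 fold change was -2.42 in MC26 (SE 0.24, edgeR adjusted p 2.34e-05) and -1.95 in M1B26 (SE 0.23, edgeR adjusted p 5.44e-05). The ubiquitin ligase CBLB fell by 0.76 and by 0.94 in the same order (edgeR adjusted p 3.47e-04 and 5.24e-05). SH3KBP1, an adaptor of CBL proteins in receptor uptake, rose by 0.76 and 0.49 (edgeR adjusted p 0.00111 and 0.00970).

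Of 22 adaptors and members of the kinase cascade, 11 changed in MC26 (6 higher, 5 lower) and 10 in M1B26 (3 higher, 7 lower), with medians of -0.01 and -0.02. That is 50% and 45.5% of the list, beside 38.7% and 48.9% of all tested genes. The adaptor GRB2, a gene of chromosome 17 like ERBB2, rose by 0.19 in MC26 (edgeR adjusted p 0.0213) and by 0.70 in M1B26 (edgeR adjusted p 4.69e-06). HRAS rose by 0.69 and 0.68 (edgeR adjusted p 1.85e-04 and 1.24e-04), and the adaptor GAB2 fell by 0.73 and 0.65 (edgeR adjusted p 0.0145 and 0.0172).

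Transcripts known to follow MAPK activity moved in both directions. Of 10, 3 were higher and 4 lower in MC26, and 4 higher and 1 lower in M1B26, with medians of -0.06 and 0.25. The changed share was 70% in MC26 and 50% in M1B26, against 38.7% and 48.9% of all tested genes. ETV4, among the 4 higher in M1B26, rose by 0.31 (edgeR adjusted p 0.00997). It is a gene of chromosome 17, whose tested genes had a median of 0.48 in M1B26 against CT. The part of that shift in its rise was not tested. SPRY4, a feedback inhibitor, rose by 1.13 in MC26 (SE 0.12, edgeR adjusted p 3.07e-05) and by 0.45 in M1B26 (SE 0.11, edgeR adjusted p 0.00746). DUSP6, the phosphatase of ERK, fell by 0.31 in MC26 (edgeR adjusted p 0.0253) and rose by 0.53 in M1B26 (edgeR adjusted p 9.54e-04). PHLDA1 rose by 0.35 and 0.68 (edgeR adjusted p 0.0222 and 4.02e-04).

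**Figure D5:**
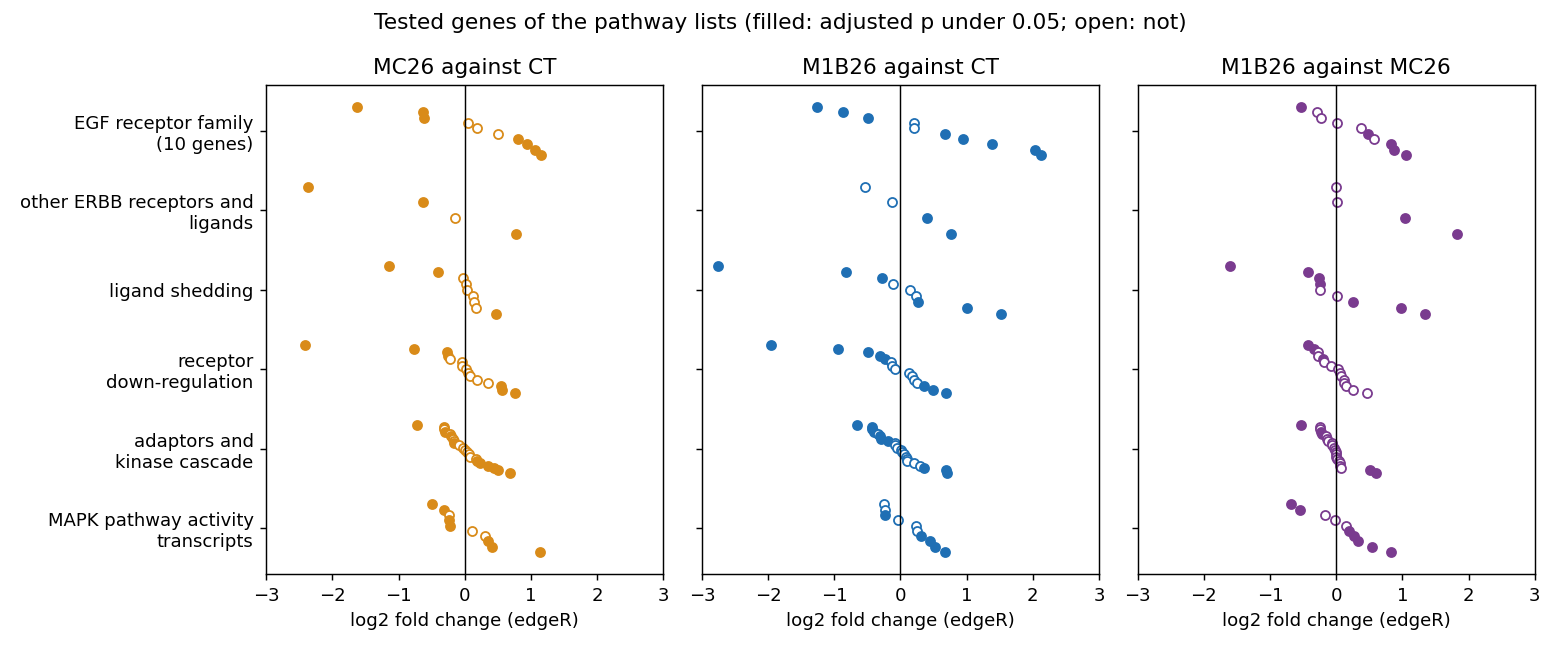
Log2 fold changes (x axis, edgeR) of the tested genes of each list (rows; within a row genes are ordered by value) in the 3 comparisons (panels). Filled points passed an adjusted p under 0.05, and the lowest point of the shedding genes, at -2.75 in M1B26 against CT, is ADAM12.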

How the data were processed

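The 9 libraries were paired-end poly-A libraries. The authors deposited raw counts for each gene symbol, and per the labels used STAR 2.7.3a on GRCh38 and Salmon 1.1.0. The table holds whole numbers and non-coding genes although the methods name protein-coding genes for Salmon, so the counting program and its use of strand are not given in the sources used here. Groups and replicate numbers came from the sample titles. The analysis used edgeR 4.0.16 under R 4.3.3: filterByExpr (minimum count 10, 15717 genes kept), TMM, and a quasi-likelihood model of the 3 lines over all 9 libraries, with 2-sided tests and Benjamini-Hochberg adjustment over all tested genes at 0.05. CPM used TMM-scaled library sizes, and the biological coefficient of variation was 10.4%. The SE was the absolute log2 fold change divided by the square root of F. P-values measure the spread between libraries of a line only, and a batch that followed the line cannot be told apart from it.

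Positions and canonical transcript lengths came from GENCODE on GRCh38, and promoters from a RefSeq table. The test was tried first on simulated counts. The 10 genes and the lists were chosen with earlier results of these data known. Named genes were the 10, ERBB2, ERBB4 and up to 3 genes per list with the largest absolute log2 fold change among called genes whose mean CPM was 1 or more. ETV4 was named as well, for its place on chromosome 17. For each of the 10 with such a mean, 2 genes of the most similar course were named. The alternatives tried were leaving out each library, a threshold of 0.01, DESeq2 1.42.0, total counts, RLE factors, a replicate block, fitting just the 6 libraries of a comparison, and no filter. Protein sequences were not used here.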

Additional observations from a re-analysis of the deposited data

Results flagged for a closer look

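The changes of the 2 transformed lines from CT differed for 5 of the 10 genes, by the direct test of M1B26 against MC26 (edgeR, adjusted over all genes). That share of 50% lay near the 39.5% of all tested genes. The libraries of the 2 lines did not overlap for 5 of the 10 genes, where all tested genes gave 53.5%. EGFR differed by -0.53 on the log2 scale (adjusted p 0.00109), with all M1B26 libraries under all MC26 libraries. EREG differed by 1.06 (adjusted p 3.89e-05), BTC by 0.83 (adjusted p 0.00177), AREG by 0.49 (adjusted p 0.00755) and NRG1 by 0.87 (adjusted p 0.0180), each higher in 3 of 3 M1B26 libraries than in any MC26 library. BTC was lower in MC26 than in CT and at 0.20 against CT in M1B26 (adjusted p 0.276). NRG1 ranged from 0.63 without MC26 replicate 3 to 1.29 without MC26 replicate 1, and was not past the threshold without MC26 replicate 2 (adjusted p 0.0732) or M1B26 replicate 1 (adjusted p 0.0706). Groups of 3 libraries were too small for single libraries to be tested as outliers.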

How the results depend on the processing

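Of the counts of called genes, 94 of 96 recomputed values stayed within 1.5 times the main count. The exceptions were all genes at an adjusted p under 0.01, with 3698 in MC26 against CT and 3685 in M1B26 against MC26. The number of the 10 genes called ran from 6 to 7 in MC26 against CT, was 8 in M1B26 against CT under every alternative, and ran from 4 to 6 in M1B26 against MC26. Leaving out single libraries gave 4524 to 6127, 6282 to 7941 and 4503 to 7166 genes called over the whole table. Of the recomputed fold changes of the 10 genes, 461 kept direction and side of the threshold, 6 lost the call, 5 gained it and 8 changed sign. The sign changes were in differences near 0 that were never called: EGFR in MC26 against CT (-0.0348 with total counts) and TGFA in M1B26 against MC26 (-0.000122 with DESeq2, -0.00697 with total counts, and -0.132 to 0.143 when single libraries were left out). HBEGF in MC26 against CT and NRG1 in M1B26 against MC26 were not past a threshold of 0.01. With total counts 2169 of 6067 called genes were higher in MC26, against 2947 of 6081 with TMM, and 3094 of 7823 in M1B26, against 3959 of 7688, while the 10 genes gave the same counts in each direction. The cause of these shifts was not tested. The sources used here state no pairing of cultures by replicate number. With the mean of each line taken out, same-numbered libraries of different lines had correlations of -0.114 to 0.136, and 2 of 9 pairs were over 0.1. Different-numbered libraries had -0.129 to 0.119. Taking out a mean of 3 libraries ties these values to each other, so they cannot settle if cultures were paired. With the replicate number as a block 7, 8 and 5 of the 10 genes were called, among 5879, 7513 and 6009 genes. Depth limits EGF, ERBB4 and NRG3 most.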
